A study of Mus musculus with 2 samples.

Results

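The Mir17hg cluster is a run of 6 microRNA hairpins, Mir17, Mir18, Mir19a, Mir20a, Mir19b-1 and Mir92-1, that are cut from a single long non-coding RNA. Its members were found by matching the Ensembl gene identifiers of the deposited count tables to their GENCODE symbols, and all 6 had a row among 1973 gene rows. The study sequenced short RNAs from mouse embryonic hearts at day 13.5, and the labels give the size selection as under 30 nucleotides. The embryos were healthy, of strain B6NCrl, with male and female tissue pooled. There was 1 group of 2 libraries, which the labels call biological replicates taken from separate biosamples under the same donor record. No treatment, genotype or second stage is given, so the comparisons are between the hairpins, between this cluster and its paralogs, and between the libraries.

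MicroRNA hairpins are cropped from a primary transcript by the nuclease Drosha and cut by Dicer into a mature RNA, which guides Argonaute proteins to target mRNAs mainly through its seed, bases 2 to 8 from the 5′ end. The hairpins of Mir17hg are transcribed together, and each is then processed and retained on its own. The locus is a target of MYC and E2F factors and is known for promoting proliferation and survival. Mice that lack it die at birth with small lungs and defects of the ventricular septum, and its gain promotes cardiomyocyte proliferation in mouse hearts. Known targets differ by seed: miR-17 and miR-20a act on the cell cycle inhibitor Cdkn1a and the death factor Bcl2l11, miR-18a on the matrix protein gene Ccn2, and miR-92a on the integrin gene Itga5.

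The mature sequences that carry each family's seed are shown here because the grouping of the hairpins rests on them. They come from RefSeq on GRCm38.p6, where all 6 members matched by symbol, and are written 5′ to 3′ with the seed in capitals.
miR-17-5p: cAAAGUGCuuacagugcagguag
miR-20a-5p: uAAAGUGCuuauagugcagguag
miR-18a-5p: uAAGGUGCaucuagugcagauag
miR-19a-3p: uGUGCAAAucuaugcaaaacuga
miR-19b-3p: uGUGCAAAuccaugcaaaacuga
miR-92a-3p: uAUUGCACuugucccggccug
The 6 hairpins thus held 4 seeds. Mir17 and Mir20a shared AAAGUGC, Mir19a and Mir19b-1 shared GUGCAAA, and Mir18 (AAGGUGC) and Mir92-1 (AUUGCAC) each had their own. Counting positions from 1 at the 5′ end, miR-17-5p and miR-20a-5p differed by C1U and C12U, outside the seed. The seed of miR-18a-5p differed from that of miR-17-5p by A4G, and the whole sequences differed at 6 of 23 bases. Within the miR-19 pair, miR-19a-3p and miR-19b-3p differed by U11C alone. The tables count reads per hairpin, so the 5′ and 3′ arms of a hairpin cannot be separated here.

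On mm10, Mir17hg spans chromosome 14 from 115042879 to 115046727 on the plus strand, and GENCODE M21 gives it 1 transcript. All 6 hairpins lay inside an exon of that transcript. In order they were Mir17 (ENSMUSG00000065508.1, 115043671 to 115043754), Mir18 (ENSMUSG00000065403.1, 115043851 to 115043946) and Mir19a (ENSMUSG00000065416.1, 115044000 to 115044081). Mir20a (ENSMUSG00000065442.1, 115044157 to 115044263), Mir19b-1 (ENSMUSG00000076256.1, 115044305 to 115044391) and Mir92-1 (ENSMUSG00000076062.1, 115044427 to 115044506) followed. The run from the first base of Mir17 to the last of Mir92-1 took 836 nucleotides. Gaps between neighbouring hairpins were 35 to 96 nucleotides, widest between Mir17 and Mir18 and narrowest between Mir19b-1 and Mir92-1.

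Replicate 1 held 12136246 reads and replicate 2 held 12282789, of which 5569959 and 6039005 were sense counts at miRNA genes. Counts per 1000000 (CPM) use those sense totals, and ± gives the SD of the 2 libraries. A read here stands for a whole short RNA, so counts were not divided by length. Among miRNAs known from heart muscle, Mir208b, Mir208a and Mir499 averaged between 1825 and 42964 CPM, while the rows of Mir1a-1 and Mir133a-1 averaged 4.07 and 2.89 CPM and Mir133a-2 held no count. Reads that map to several places are taken to be outside the gene rows, and their part in these low values was not tested. In whole tissue, fewer cells of a type and less RNA per cell cannot be told apart.

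The rows of this cluster spanned more than 3 orders of magnitude, with the AAAGUGC pair at the top and the GUGCAAA pair at the bottom. Beyond a factor of 740, that of Mir17 over Mir19a, the span rests on Mir19b-1. The row of Mir19b-1 is taken to lack reads that also fit Mir19b-2, its paralog on the X chromosome. Mir17 held 106155 counts (19059 CPM) in replicate 1 and 125523 counts (20785 CPM) in replicate 2. Mir20a, which shares its seed, held 41931 counts (7528 CPM) and 53406 counts (8844 CPM). These were the only members among the first 25 rows of either library, and each lay slightly higher in replicate 2.

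Mir18 was next with 14696 counts (2638 CPM) in replicate 1 and 17434 counts (2887 CPM) in replicate 2. Mir92-1, the last hairpin of the transcript, held 11896 counts (2136 CPM) in replicate 1 and 10982 counts (1819 CPM) in replicate 2. The libraries agreed on the order of Mir18 and Mir92-1, whose CPM values did not overlap.

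Both miR-19 hairpins were far lower. Mir19a held 159 counts (28.5 CPM, exact Poisson 95% interval 24.3 to 33.3) in replicate 1 and 153 counts (25.3 CPM, 21.5 to 29.7) in replicate 2. Mir19b-1 held 37 counts (6.64 CPM, 4.68 to 9.16) and 30 counts (4.97 CPM, 3.35 to 7.09). Their values did not overlap each other or any other member's. Intervals cover counting error only, since copies made by PCR are not independent molecules.

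**Figure D1:**
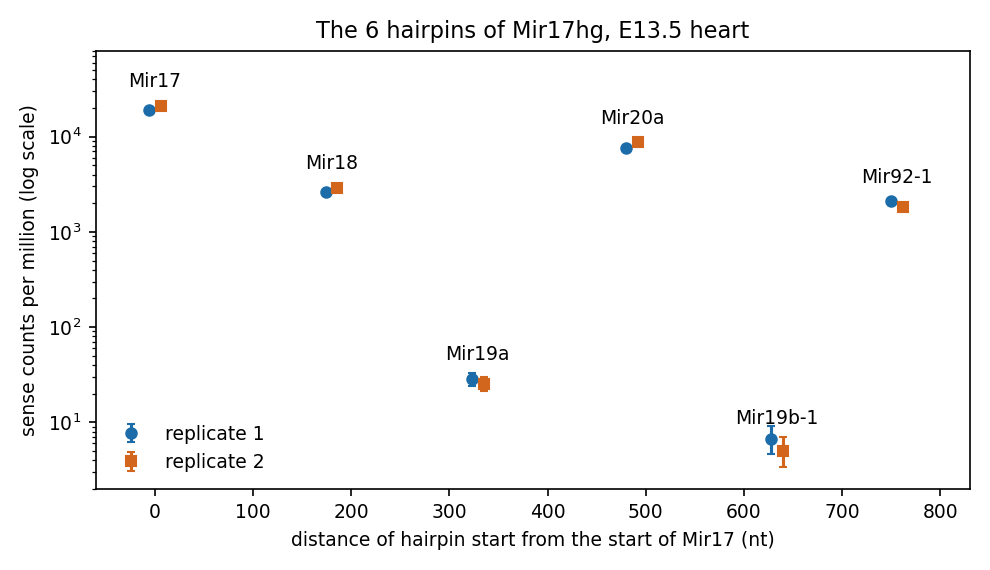
Sense CPM (log axis) of each hairpin in each library, placed by the distance of its start from the start of Mir17 in nucleotides; bars are exact Poisson 95% intervals. Mir19a and Mir19b-1 sit at or under 28.5 CPM, between hairpins at 1819 CPM or more.

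Along the transcript, Mir19a lies between Mir18 and Mir20a, and Mir19b-1 between Mir20a and Mir92-1, and both stood below their neighbours on each side. Mir20a had 264 times the counts of Mir19a in replicate 1 (226 to 310, exact 95% interval) and 349 times in replicate 2 (298 to 412). Mir92-1 had 322 times the counts of Mir19b-1 in replicate 1 (233 to 457) and 366 times in replicate 2 (256 to 543). Both of these rows are taken to lack reads that also fit their X chromosome paralogs, so this ratio holds for the remaining reads only.

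As shares of the cluster's own counts, Mir17 took 60.6% ± 0.155 (SD, n = 2) and Mir20a 24.9% ± 1.24. Mir18 took 8.40% ± 0.00210, the steadiest share of the 6, and Mir92-1 took 6.05% ± 1.07. Mir19a took 0.0823% ± 0.0122 and Mir19b-1 0.0178% ± 0.00474. By seed, the AAAGUGC pair therefore took 84.7% of the cluster in replicate 1 (84.5 to 84.9, exact 95% interval) and 86.2% in replicate 2 (86.1 to 86.4). The GUGCAAA pair took 0.112% (0.0969 to 0.129) and 0.0882% (0.0759 to 0.102). All these are shares of row counts, and the rows of Mir19b-1 and Mir92-1 are taken to lack reads that also map elsewhere.

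Ratios over Mir17 do not depend on library scaling and show which hairpins kept their proportion between the hearts. Mir18 over Mir17 was 0.138 in replicate 1 and 0.139 in replicate 2 (mean log2 -2.85 ± 0.00332, SD, n = 2), with overlapping intervals. Mir20a over Mir17 was 0.395 (0.391 to 0.399) and 0.425 (0.421 to 0.430), a mean log2 of -1.29 ± 0.0758. Mir92-1 over Mir17 was 0.112 (0.110 to 0.114) in replicate 1 and 0.0875 (0.0858 to 0.0892) in replicate 2, a mean log2 of -3.34 ± 0.253. So Mir20a made up more, and Mir92-1 less, of the cluster relative to Mir17 in replicate 2.

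Mir19a lay 740-fold below Mir17 (log2 -9.53 ± 0.210) and Mir19b-1 3465-fold below (log2 -11.76 ± 0.385). Intervals of both ratios overlapped between the libraries. In all, 15 ratios can be formed among the 6 hairpins, and each exceeded the SD of its log2 value and had the same direction in both libraries. The closest neighbours in level were Mir92-1 and Mir18, with Mir92-1 at 0.809 and 0.630 times Mir18 (log2 -0.49 ± 0.256). At 5 of the 15 ratios the intervals of the libraries did not overlap, and those were the ratios among Mir17, Mir18, Mir20a and Mir92-1 other than Mir18 over Mir17. The smallest p that an exact permutation over 2 libraries allows is 0.5, so these ratios carry none. Those hairpins held the most counts of the cluster, and the intervals cover counting error only. Pairs of other genes were not compared in this way, so the count of 5 is no trait of these hairpins. Over all genes tested, single rows differed between the libraries by a median absolute log2 ratio of 0.16.

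**Figure D2:**
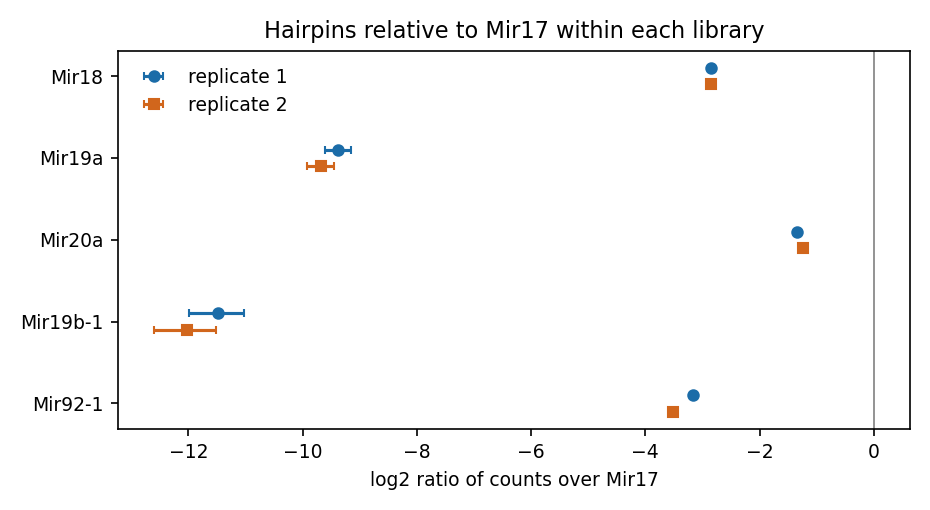
Log2 ratio of each hairpin's counts over those of Mir17 within replicate 1 (circles) and replicate 2 (squares), with exact 95% intervals. Mir18 coincides in the libraries at -2.85, while Mir92-1 is at -3.16 in replicate 1 and -3.51 in replicate 2.

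Sequences of Mir19b-1 and Mir92-1 also occur on the X chromosome, where the paralogs Mir19b-2 and Mir92-2 hold the same mature sequence. The hairpins are shown because a read inside the capitals, the longest run common to each pair, has more than 1 place of origin (RefSeq, GRCm38.p6, strand of the hairpin, 5′ to 3′).
Mir19b-1 (chr14:115044305-115044391): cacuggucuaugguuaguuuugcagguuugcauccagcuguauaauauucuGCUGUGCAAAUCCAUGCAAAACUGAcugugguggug
Mir19b-2 (chrX:52741983-52742066): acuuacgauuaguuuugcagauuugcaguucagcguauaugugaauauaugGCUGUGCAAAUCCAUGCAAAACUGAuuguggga
Mir92-1 (chr14:115044427-115044506): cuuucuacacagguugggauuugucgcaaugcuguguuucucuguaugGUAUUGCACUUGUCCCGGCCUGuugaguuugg
Mir92-2 (chrX:52741838-52741928): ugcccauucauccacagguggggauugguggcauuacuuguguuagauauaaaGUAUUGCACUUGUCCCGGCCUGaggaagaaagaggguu
The shared run had 25 bases in the Mir19b pair and 22 in the Mir92 pair. In both pairs it covered the whole mature sequence and ended exactly at the mature 3′ end, so that only reads with further bases can be placed. Reads that map to several places form a class of their own in the tables, at 26.9% of reads in replicate 1 and 28.0% in replicate 2. Within a library each of the 3 count columns summed, with the read classes, to the same total. The reads of that class are taken to be outside the gene rows, which no source states. On that reading, reads that fit inside the capitals are missing from the rows of Mir19b-1 and Mir92-1. The 5′ arms of both hairpins, miR-19b-1-5p and miR-92a-1-5p, are each listed at 1 locus, and their reads would be in these rows. The rows therefore give neither a level nor a bound for the shared 3′ arm alone.

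The RefSeq table lists miR-92a-3p at 2 loci, and Mir92-1 held 1977 ± 224 CPM. It lists miR-19a-3p at 1 locus, and Mir19a held 26.9 ± 2.27 CPM. The nearest mature sequences to miR-19a-3p were those of Mir19b-1 and Mir19b-2, at 1 mismatch. The nearest to miR-17-5p, miR-106a-5p, was also at 1 mismatch (U10A). The longest run that the Mir19a hairpin shared with any other hairpin in the RefSeq table was 13 bases, as was that of Mir17. Comparison was with listed hairpins only, and the part of shared sequence in the levels was not tested.

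Predicted folding energies, in the order of the transcript, were -36.7 kcal/mol for Mir17, -29.2 for Mir18, -38.7 for Mir19a, -38.6 for Mir20a, -37.8 for Mir19b-1 and -34.0 for Mir92-1. Hairpin GC content lay between 43.7% and 47.5% in all 6. The mature miR-19a-3p had the lowest GC content of the printed sequences at 34.8%. That of miR-19b-3p was 39.1%, equal to that of miR-20a-5p, and miR-92a-3p had the highest at 57.1%. The part of folding and base composition in the levels was not tested.

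Set against all rows with a mean of 10 CPM or more, whose median was 197 CPM, 4 of the 6 hairpins lay above that median. Mir19a lay below it, and Mir19b-1 did not reach 10 CPM. Mir17 ranked 13 of all rows, between Mir23a (20213 ± 457 CPM) and Mir130a (19260 ± 53.2 CPM), and differed from neither by more than the SD of the log2 ratio. Mir20a ranked 23, Mir18 44, Mir92-1 60, Mir19a 247 and Mir19b-1 310. These ranks are among rows that are taken to lack reads mapping to several places, so they are not ranks among all miRNAs. Of the 12 comparisons with the row directly above or below, 2 exceeded the SD of the log2 ratio: Mir18 below Mir532 (log2 -0.13 ± 0.00746) and Mir19a below Mir184 (log2 -0.014 ± 0.00685). Mir184, at 28.7 and 25.7 CPM, lay within the Poisson interval of Mir19a in each library. Counting error therefore covers that difference. The neighbouring rows were picked for closeness in level, so small ratios to them follow from the choice. Mir17 held 0.463 times the counts of Mir208b, the heart muscle miRNA in Myh7 (log2 -1.11 ± 0.0305).

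Summed over the hairpins, the cluster took 3.14% of sense counts in replicate 1 (3.13 to 3.15, exact 95% interval) and 3.44% in replicate 2 (3.42 to 3.45), or 3.29% ± 0.210. Those sense counts are taken to leave out reads that map to several places, and with all reads as the base the share was 1.57%. The paralogs of the cluster arose by duplication and share seeds with it. The cluster in Mcm7, a gene for a subunit of the replicative helicase, holds Mir106b, Mir93 and Mir25 on chromosome 5. It carries the miR-17 and miR-92 seeds only. The third cluster, with Mir106a, Mir18b, Mir20b, Mir19b-2, Mir92-2 and Mir363, lies on the X chromosome. The Mir17hg cluster had 2.88 times the counts of the Mcm7 cluster in replicate 1 (2.86 to 2.91) and 2.86 times in replicate 2 (2.83 to 2.88), a log2 ratio of 1.52 ± 0.00852. Over the X chromosome cluster the ratios were 163 (153 to 173) and 217 (204 to 232), a log2 ratio of 7.56 ± 0.294. The ratio to the Mcm7 cluster was thus steady between the libraries, and that to the X chromosome cluster was higher in replicate 2.

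Position by position, the gap to the Mcm7 cluster was uneven. Mir20a, with 7528 and 8844 CPM, stood close to Mir93, with 6668 and 7548 CPM. Their ratio was 1.13 in replicate 1 (1.11 to 1.14) and 1.17 in replicate 2 (1.16 to 1.19). Mir17 stood 4.86 (4.79 to 4.93) and 4.95 (4.88 to 5.01) times above Mir106b, which held 3919 and 4203 CPM. Mir92-1 stood 6.92 (6.58 to 7.28) and 6.62 (6.29 to 6.97) times above Mir25, which held 309 and 275 CPM. In each of these clusters the row of the miR-92 seed hairpin was below that of every miR-17 seed hairpin. The row of Mir92-1 is taken to lack reads inside the run shared with Mir92-2. Its place and its ratio over Mir25 hold for the remaining reads only.

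The rows of the X chromosome paralogs were lower at every shared position. Mir17 was 355-fold above Mir106a (log2 8.47 ± 0.268), Mir18 was 427-fold above Mir18b (log2 8.74 ± 0.0926) and Mir20a was 224-fold above Mir20b (log2 7.81 ± 0.493). Mir92-1 was 47.9-fold above Mir92-2 (log2 5.58 ± 0.120), with 42.0 and 40.2 CPM at Mir92-2. Mir19b-2 held 1 and 8 counts, and the ratio of Mir19b-1 over it was 37 in replicate 1 (6.24 to 1500) and 3.75 in replicate 2 (1.68 to 9.47). That last pair was too thinly counted to place. Among the well counted pairs, the row ratio was smallest at Mir92. Both Mir92 rows are taken to lack the reads inside their shared run, so this ratio cannot be ranked against the others.

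**Figure D3:**
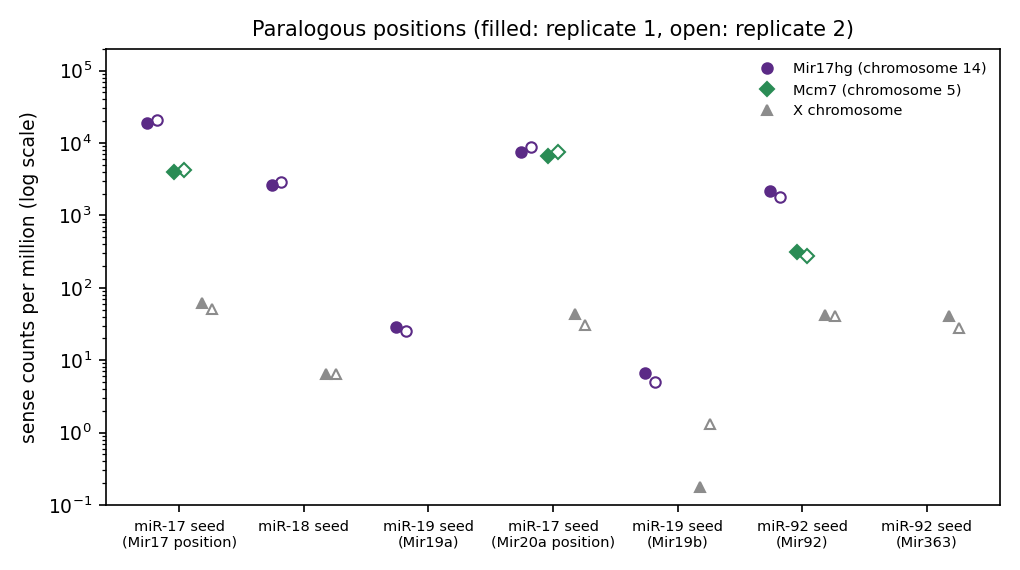
Sense CPM (log axis) at corresponding positions of the Mir17hg cluster (circles), the Mcm7 cluster (diamonds) and the X chromosome cluster (triangles), in replicate 1 (filled) and replicate 2 (open). Mir20a and Mir93 nearly meet, and all X chromosome rows are at or under 61.2 CPM.

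The sequences at these positions differ outside the seed, and 3 are shown because the distance of Mir17 from its paralogs rests on telling them apart (RefSeq, GRCm38.p6, seed in capitals).
miR-106a-5p: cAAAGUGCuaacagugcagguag
miR-20b-5p: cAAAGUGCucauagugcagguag
miR-93-5p: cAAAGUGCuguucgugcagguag
Relative to miR-17-5p, miR-106a-5p differed by U10A, miR-20b-5p by U10C and C12U, and miR-93-5p at 4 bases from position 10 to position 13. Of these RNAs with the same seed, the rows in the X chromosome cluster were the low ones and that of Mir93 was not.

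Grouped by seed over all clusters, the Mir17hg rows held most of the counts at the rows of every family. For the miR-17 seed, Mir17 and Mir20a supplied 71.3% in replicate 1 (71.1 to 71.5, exact 95% interval) and 71.5% in replicate 2 (71.3 to 71.6) of a family total of 39370 ± 2959 CPM over 6 loci. Mir18 supplied 99.8% in both libraries of a miR-18 total of 2769 ± 176 CPM. For the miR-92 seed, Mir92-1 supplied 81.5% (80.9 to 82.2) and 80.3% (79.6 to 81.0) of 2442 ± 251 CPM over 5 loci, which include Mir32 on chromosome 4 at 97.6 ± 7.22 CPM. Mir92b on chromosome 3 also has that seed and held 92.1 ± 23.4 CPM; it was added after its values were seen, together with Mir367 at 3 and 0 counts, and lowered the share of Mir92-1 to 78.0% ± 0.390. The miR-19 seed totalled 33.5 ± 2.64 CPM over 3 loci. The Mir17hg cluster held 99.5% (97.2 to 99.99) and 95.8% (91.9 to 98.2) of it. All these shares are of counts at whole hairpins, with both arms included. The shares of the miR-19 and miR-92 seeds also leave out reads that fit inside the shared runs. They are therefore not shares of the RNA that carries these seeds.

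Unequal levels within a cluster were common elsewhere in the tables. Neighbouring rows were joined where their starts lay at most 10000 nucleotides apart on 1 strand, a rule set with the values known. This gave 14 clusters with at least 3 rows counted in both libraries. The highest over the lowest hairpin gave a log2 span of 11.76 ± 0.385 in the Mir17hg cluster, against 1.73 to 14.9 and a median of 5.52 in the other 13. By that span the cluster ranked 3, and by summed level it ranked 2. Such a span can only widen as rows are added, and this cluster has 6. The other clusters with 6 or 7 counted rows had log2 spans of 11.3 ± 0.210, 6.84 ± 2.22 and 5.31 ± 0.104. The rank of 3 rests on Mir19b-1, the lowest row, which held 37 and 30 counts. Reads inside the run shared with Mir19b-2 are taken to be missing from that row. Mir19a, the next lowest, lay at a log2 ratio of -9.53 over Mir17. Mir17 took 60.6% of its cluster, while the leading hairpin took 24.0% to 97.4% in the other 13, with a median of 46.6%, and in 5 of them more than Mir17 did. The span was therefore wide but not the widest, and the lead of Mir17 lay inside the range of the others.

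**Figure D4:**
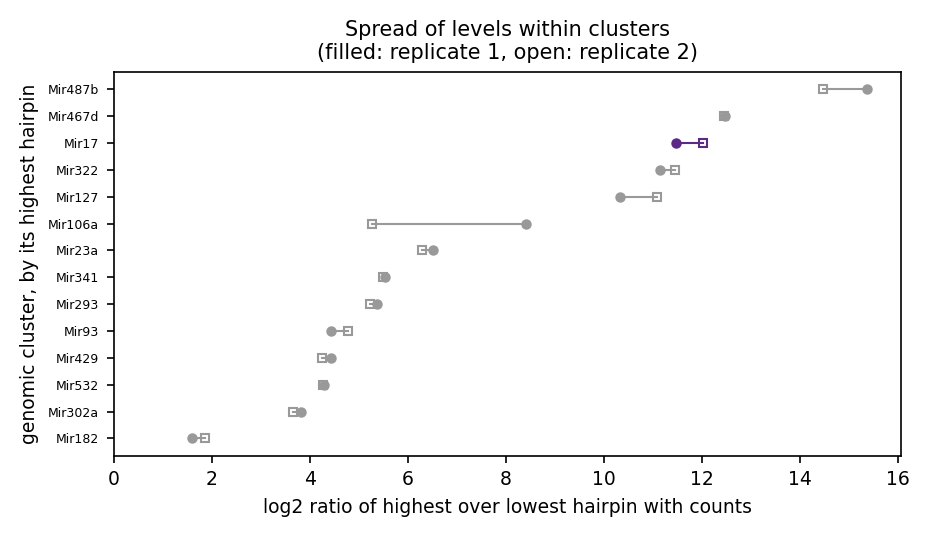
Log2 ratio of the highest over the lowest hairpin with counts in each genomic cluster, named by its highest hairpin, in replicate 1 (filled) and replicate 2 (open). The Mir17hg cluster (purple) is the third row from the top, with 11.49 and 12.03, and its lowest hairpin is Mir19b-1.

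Between the libraries, the rows of the members did not all change in the same direction, and neither did those of all genes. Each gene with a mean of 10 CPM or more was tested with an exact conditional binomial test on its reads, with total sense counts as offset and Benjamini-Hochberg adjustment over all 288 genes tested. Of the 6 hairpins, 5 were tested and Mir19b-1 was not. Of these 5, 2 were higher in replicate 1 and 3 in replicate 2, against 189 and 99 of all genes tested. At an adjusted p under 0.05 and any ratio, 4 of 5 passed, against 61.5% of all genes. None of the 5 also reached a ratio of 1.5, which 5.90% of all genes did. Both counts are near what the tables give for any gene.

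Mir17 was lower in replicate 1 than in replicate 2, at a log2 of replicate 1 over replicate 2 of -0.13 (exact 95% interval -0.14 to -0.11, adjusted p = 5.51e-95). Mir18 had the same log2 ratio to 2 decimals, -0.13 (-0.16 to -0.10, adjusted p = 4.12e-15 in the exact binomial test). Mir20a had -0.23 (-0.25 to -0.21, adjusted p = 7.86e-134 in the exact binomial test). Mir92-1 went the other way with 0.23 (0.19 to 0.27, adjusted p = 4.33e-33 in the exact binomial test). The row of Mir92-1 is taken to lack reads that also fit Mir92-2, so its ratio holds for the remaining reads only. Mir19a had 0.17 (-0.16 to 0.50, adjusted p = 0.386 in the exact binomial test), and the untested Mir19b-1 had 0.42 (-0.32 to 1.16).

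For comparison, the median log2 ratio over all genes tested was 0.10 and the median absolute one was 0.16. Of all genes tested, 98 had a larger absolute ratio than Mir20a and 180 a larger one than Mir17. The sizes of these ratios depended on the scaling, and their directions did not. With TMM factors the log2 ratio was -0.22 for Mir17, -0.23 for Mir18, -0.33 for Mir20a, 0.07 for Mir19a and 0.13 for Mir92-1. DESeq2 size factors gave -0.23, -0.23, -0.33, 0.07 and 0.13 in the same order. The test sets one library's reads against the other's, its p-values cover counting error alone, and no condition is compared.

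Levels of cell type markers were not equal in the libraries. Mir122, the marker of hepatocytes, held 201 CPM in replicate 1 and 591 CPM in replicate 2. The erythroid markers Mir451a and Mir144 had a summed level of 1159 CPM in replicate 1 and 897 CPM in replicate 2, both of them higher in replicate 1. Of 4 neural markers 2 had a row, with Mir137 at 83.1 and 52.7 CPM and Mir124a-1 at 0 counts in both. The summed level of the 6 cardiomyocyte markers was 50724 CPM in the first library and 53395 CPM in the other. Of these, 2 were higher in replicate 1 and 3 in replicate 2, and Mir133a-2 was at 0 in both. Their part in the differences between the libraries was not tested.

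**Figure D5:**
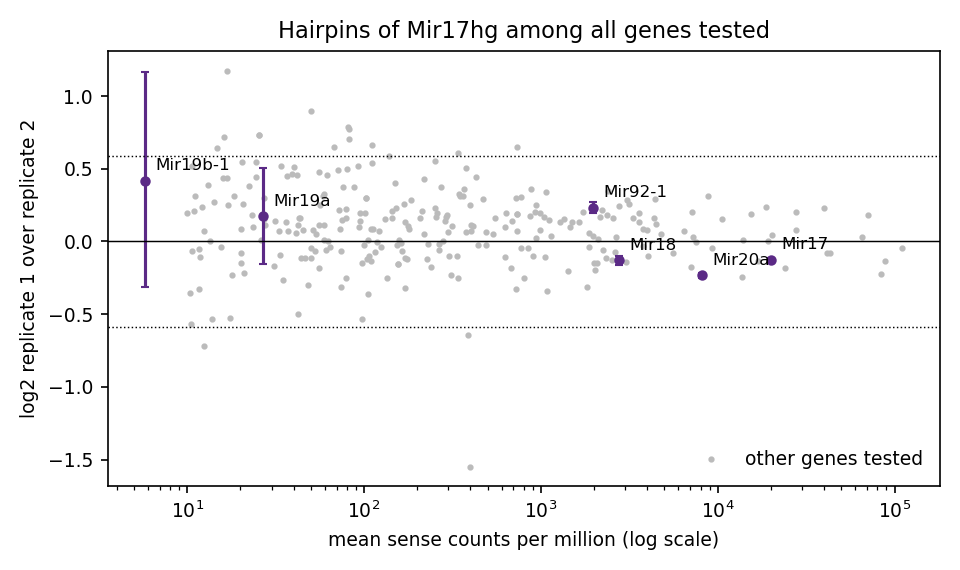
Log2 ratio of replicate 1 over replicate 2 against mean sense CPM (log axis) for all genes tested (grey) and for the 6 hairpins (purple, with exact 95% intervals; Mir19b-1 lies below the level tested); dotted lines mark a ratio of 1.5. No hairpin's point passes a dotted line, Mir20a and Mir17 lie below 0 and Mir92-1 above it.

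No count lay on the strand opposite to any of the 6 hairpins in either library, where 3 counts, the most that a count of 0 allows, are 0.539 CPM (replicate 1) and 0.497 CPM (replicate 2).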

How the data were processed

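The deposited values are whole-number read counts per miRNA gene, 1 table a library, which the authors derived from mm10 alignments and GENCODE M4 genes, per notes they deposited. The aligner and counter, with their versions, were not given in the sources used here. A table has 1973 gene rows and 4 read classes; the classes entered no library size or test. Sense counts were scaled to counts per 1000000 sense counts. Symbols came from GENCODE M21, where 1894 of 1973 identifiers matched.

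Shares and ratios carry exact Clopper-Pearson 95% intervals and levels exact Poisson ones. A count of 0 allowed 3 counts. Libraries were compared gene by gene by an exact conditional binomial test, two-sided, and a pseudocount of 1 CPM, which was tested on simulated data. Apart from the changes put in, the simulated counts varied by counting error alone, so that check says nothing about other variation between libraries. Scaling alternatives came from edgeR 4.0.16 (TMM) and DESeq2 1.42.0 in R 4.3.3. Folding used ViennaRNA 2.7.2, and other steps Python 3.11.15, scipy 1.17.1, numpy 2.4.6, pandas 2.3.3 and matplotlib 3.10.9.

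The members and lists were chosen with earlier results of these data known. Named were the 6 hairpins, their paralogs, Mir32, the rows next to each hairpin in level and the cell type markers. Mir92b and Mir367 were named after their values were seen. Differences between sequences in ligation or amplification were not measured here.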

Additional observations from a re-analysis of the deposited data

Results flagged for a closer look

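Reads that mapped to several places were looked at because no comparison of the report uses them, and they far exceed the 3 counts that a count of 0 allows. Their share was 26.9% of all reads in replicate 1 and 28.0% in replicate 2, or 18.7 and 16.6 times the counts of the whole Mir17hg cluster. How many of them belong to Mir19b-1 or Mir92-1 was not tested.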

How the results depend on the processing

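Of 77 alternative values for 24 results, other than those without a library, 56 stayed within the spread of the libraries or on the same side of the threshold and 21 moved, with no change of direction. Another 36 values left out 1 library. With 2 libraries these cannot leave the spread around their own mean, so they say nothing about stability. With all reads as the base, levels became 9483 CPM (Mir17), 1315 (Mir18), 12.8 (Mir19a), 3902 (Mir20a), 2.75 (Mir19b-1) and 937 (Mir92-1), and the cluster's share 1.57%. Without the most abundant gene in the base they were 22388, 3105, 30.3, 9200 and 2221 CPM for Mir17, Mir18, Mir19a, Mir20a and Mir92-1, and 3.70% for the share. The order of the hairpins is fixed by their counts in both cases. Without members whose mature sequence recurs elsewhere, the log2 ratio was 1.43 over the Mcm7 cluster and 7.86 over the X chromosome cluster, and the cluster's share of the miR-92 seed was 0%, since Mir92-1 itself was left out. That share was 78.0% with all loci of the seed, an alternative chosen after seeing the data. The number of genes that differed between the libraries, 17, became 39 at 1 CPM, 45 with no level minimum, 2 at a ratio of 2 and 177 with no minimum ratio. The members called were 0 under each of these except the last, with 4 of the 5 tested, against 61.5% of all 288 genes tested. The 45 genes were out of the 692 rows with a count, and the number tested at 1 CPM is not given here. Depth limits Mir19a and Mir19b-1 most, at 153 to 159 and 30 to 37 counts. No paired analysis was possible because there is 1 group.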
